A study of Mus musculus with 16 samples.

Results

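The aryl hydrocarbon receptor gene Ahr, the genes of its partners Arnt and Arnt2, and 6 genes known as its targets or repressors (Ahrr, Cyp1a1, Cyp1b1, Tiparp, Nqo1 and Gpr15) were followed in CD8 T cells of leukaemia-bearing mice. These 9 genes were chosen by name, each through a probe set that carries that symbol alone, from 22180 genes measured on 16 single-colour Affymetrix arrays. Chimeric mice had received bone marrow that was wild-type (WT) or knockout for Il4i1 (KO), and then murine chronic lymphocytic leukaemia (CLL) cells of Eµ-TCL1 origin. All arrays come from female mice of a strain written C56BL/6, and every group, WT included, carried the leukaemia and the bone marrow graft. At 5 weeks from that transplant, CD8 T cells of the spleen were sorted by CD44 and CD127. Effector cells were CD44 positive and lacked CD127, and memory cells were high for both markers. Each subset has 4 KO and 4 WT samples. The Il4i1 deletion lies in cells that grew from the graft, and the labels do not say how many host cells remained, at what age the mice were, or whether samples of a group are separate animals. The labels also do not state whether effector and memory samples share animals. Values are log2 expression. A difference is given as KO minus WT or effector minus memory, with its standard error (SE) from a limma fit of all 16 arrays, and passes at a Benjamini-Hochberg adjusted p under 0.05 over all 22180 genes.

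AHR is a transcription factor of the bHLH-PAS family that waits in the cytosol with HSP90 and the co-chaperone p23. On binding a small aromatic ligand it moves to the nucleus, pairs with ARNT and binds DNA at sites with the core GCGTG, which raises genes such as the cytochromes of the Cyp1 family and those of its own repressors, AHRR and TIPARP. The enzyme made by Il4i1 is secreted and oxidises phenylalanine, tyrosine and tryptophan, and indole products of the last can act as ligands. In T cells AHR is known for its roles in Th17, regulatory and tissue-resident memory cells.

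The windows of 250 bases before the start site are shown for the target genes Ahrr, Tiparp and Cyp1b1, which AHR is known to induce, and for Gpr15, the target that separated the sorts. Sequences are from RefSeq, build GRCm38.p6, read 5′ to 3′ along the gene's strand, and capitals mark GCGTG or its reverse complement CACGC.
Ahrr upstream window, chr13:74292332-74292581, - strand: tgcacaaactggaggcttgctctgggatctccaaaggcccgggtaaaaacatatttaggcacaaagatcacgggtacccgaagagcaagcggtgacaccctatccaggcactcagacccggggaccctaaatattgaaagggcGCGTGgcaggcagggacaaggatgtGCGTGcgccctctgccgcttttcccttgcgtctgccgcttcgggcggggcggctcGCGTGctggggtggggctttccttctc
Tiparp upstream window, chr3:65528197-65528446, + strand: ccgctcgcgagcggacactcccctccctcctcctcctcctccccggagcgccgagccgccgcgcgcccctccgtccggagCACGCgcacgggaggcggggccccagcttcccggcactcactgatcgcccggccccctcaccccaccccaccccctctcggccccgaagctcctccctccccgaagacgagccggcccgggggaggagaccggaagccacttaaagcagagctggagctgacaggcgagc
Cyp1b1 upstream window, chr17:79715062-79715311, - strand: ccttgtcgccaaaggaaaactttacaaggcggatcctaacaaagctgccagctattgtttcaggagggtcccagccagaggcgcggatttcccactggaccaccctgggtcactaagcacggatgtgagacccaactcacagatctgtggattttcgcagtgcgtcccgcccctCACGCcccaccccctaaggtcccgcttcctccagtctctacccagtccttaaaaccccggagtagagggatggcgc
Gpr15 upstream window, chr16:58718873-58719122, - strand: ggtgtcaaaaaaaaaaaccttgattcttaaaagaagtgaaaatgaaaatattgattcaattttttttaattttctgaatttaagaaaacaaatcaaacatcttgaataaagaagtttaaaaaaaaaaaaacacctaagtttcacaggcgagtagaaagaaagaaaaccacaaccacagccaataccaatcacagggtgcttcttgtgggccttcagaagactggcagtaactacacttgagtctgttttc
The Ahrr window holds the core 3 times, beginning 107, 82 and 27 bases before the start. Tiparp and Cyp1b1 hold it 1 time each, at 170 and 76 bases, and Gpr15 does not hold these letters. The window of Arnt holds 1 copy, at 29 bases, and that of Nqo1 none. The windows listed for Arnt2 and Cyp1a1 begin inside the span RefSeq gives the gene, so they may belong to a shorter transcript and are not counted. No window was listed for Ahr. Among all 32851 windows of this length, 28.2% carry the core on either strand and 2.77% carry it 3 times or more. A match of 5 letters is a description and no evidence of binding.

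The genotype labels have no direct check here, since the probe set of Il4i1 also covers Nup62 and Il4i1b. Its signal was 5.90 in effector KO (SD 0.11, n = 4), 5.95 in effector WT (SD 0.06, n = 4), 5.67 in memory KO (SD 0.14, n = 4) and 5.99 in memory WT (SD 0.06, n = 4). All 5 measured markers of CD8 T cells lay above the array median on at least 8 arrays, with a summed log2 level of 54.95 to 56.2 over the 16 arrays. Array medians lay between 4.12 and 4.22. Array effector KO 4 stood apart, with correlations over genes of 0.965 to 0.974 to the others, where all other pairs were at 0.971 to 0.994. It had the lowest Ahr value of all arrays, so results are also given without it.

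Expression against the array median set the genes apart into measurable and dim ones. Ahr, Arnt and Tiparp lay above the median on all 16 arrays, by 0.08 to 2.26, 2.67 to 3.90 and 1.85 to 2.75. Arnt2 lay above it on 14 arrays and fell under it on memory KO 1 and 4. Gpr15 was above on 7 arrays, all of them memory arrays. Cyp1a1 was above on 6 arrays and never by more than 0.26. Ahrr, Cyp1b1 and Nqo1 lay under the median on every array, by 0.51 to 1.01, 1.48 to 1.74 and 0.39 to 1.24. How far the dim genes lay over background is unknown, as no background was given.

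**Figure D1:**
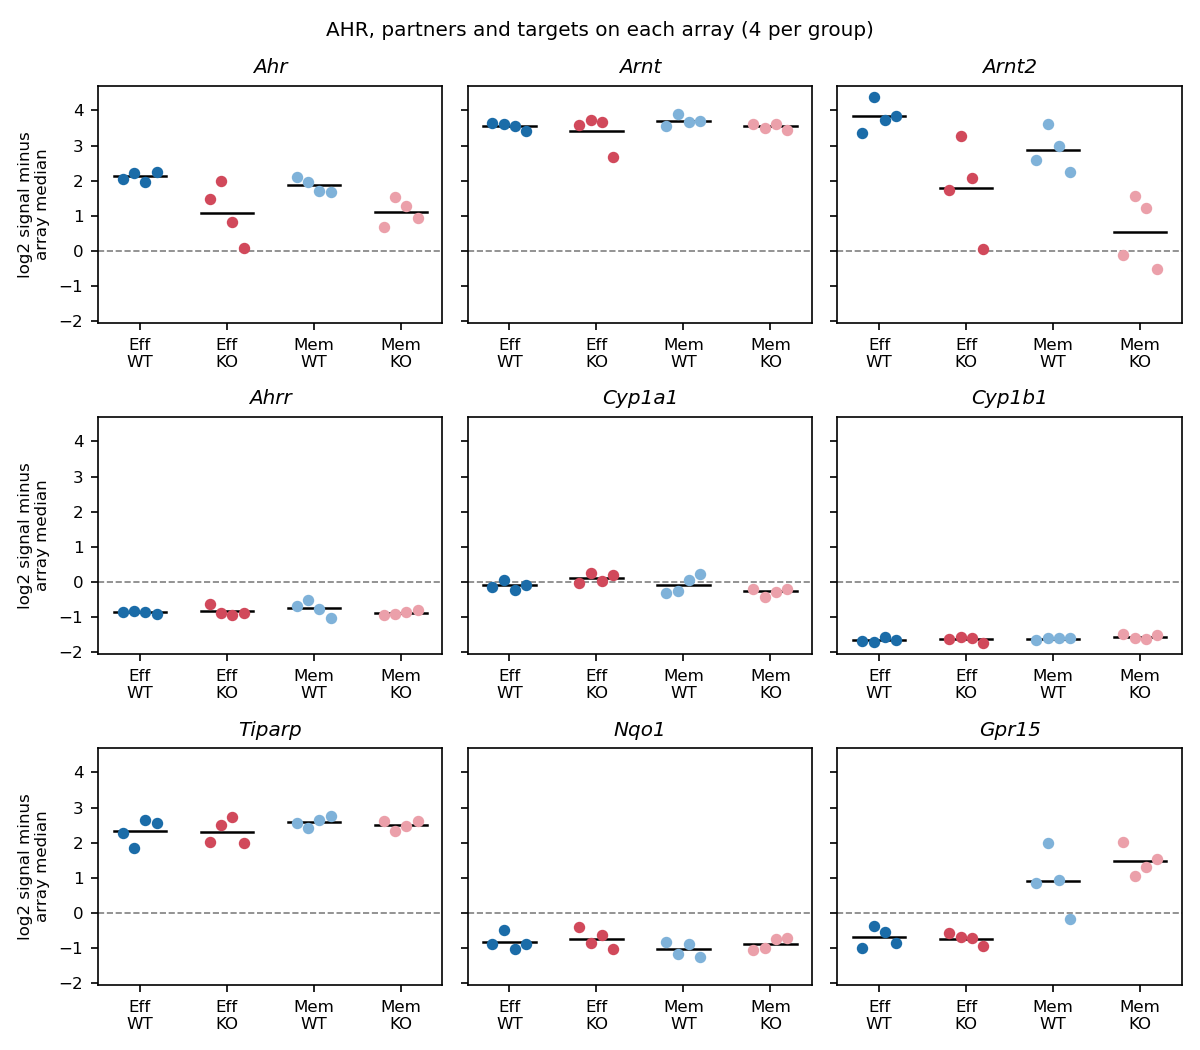
Log2 signal minus the median of the same array (vertical axis) for each of the 9 genes, 1 point per array in 4 groups (Eff, effector; Mem, memory), with the group mean as a bar and the array median as the dashed line. Arnt2 is lower on the KO arrays of each subset, Gpr15 is above the line on memory arrays only, and Ahrr, Cyp1b1 and Nqo1 stay under it on all 16 arrays.

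The receptor gene was lower in KO in both subsets without passing the threshold. In effector cells Ahr read 5.65, 6.14, 4.99 and 4.30 on KO arrays 1 to 4, and 6.20, 6.41, 6.13 and 6.43 on WT arrays 1 to 4. The 4 WT arrays lay close together, while the KO arrays were spread from 4.30 to 6.14, and of these KO 2 alone reached the lowest WT array. The difference was -1.02 ± 0.29 (2.03-fold lower mean, adjusted p = 0.385), with an exact two-sided permutation p of 0.0571. In memory cells Ahr read 4.88, 5.73, 5.47 and 5.12 in KO and 6.21, 6.09, 5.88 and 5.83 in WT. Here all KO arrays lay below all WT arrays, which held for 3.37% of the 22180 genes in that direction. The difference was -0.70 ± 0.29 (adjusted p = 0.368, exact permutation p = 0.0286, the smallest that 4 against 4 arrays can give).

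Averaged over both subsets, Ahr was at -0.86 ± 0.20 (1.82-fold, 95% interval -1.29 to -0.43) and missed the threshold (adjusted p = 0.0822). With KO and WT arrays exchanged only within a subset, 4900 arrangements, its exact permutation p was 0.000816. That count takes effector and memory arrays as independent, and the labels do not say whether they share animals. Were each animal the source of both, the smallest exact p of 4 against 4 would be 0.0286. Ahr ranked 158 of 22180 genes by p in this comparison, which averages the same arrays as the subset comparisons and is no further evidence beside them. Without effector KO 2, the highest of the effector KO arrays, the difference was -1.01 and passed (adjusted p = 0.0126), and in effector cells alone it was -1.31 (adjusted p = 0.0495). Without effector KO 4 it was -0.70 over both subsets (adjusted p = 0.0849) and -0.70 in effector cells (adjusted p = 0.728). The KO effect was not shown to differ between subsets, with an interaction of -0.32 ± 0.40 (95% interval -1.18 to 0.53, adjusted p = 0.92). Effector minus memory was 0.13 ± 0.20 (95% interval -0.30 to 0.56, adjusted p = 0.784). In order, the group means were 6.29 (SD 0.15) in effector WT, 6.00 (SD 0.18) in memory WT, 5.30 (SD 0.38) in memory KO and 5.27 (SD 0.80) in effector KO (n = 4 each). The arrays of the 2 WT groups overlapped, as did those of the 2 KO groups, and memory WT and memory KO did not overlap.

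Of the partner genes, Arnt2 fell in KO and Arnt was not detectably changed. Arnt2 encodes a bHLH-PAS protein close to ARNT that is best known from neurons. In effector cells Arnt2 read 5.89, 7.42, 6.26 and 4.29 on KO arrays 1 to 4 and 7.54, 8.56, 7.89 and 8.02 on WT arrays 1 to 4. In memory cells it read 4.08, 5.75, 5.41 and 3.66 in KO and 6.72, 7.75, 7.15 and 6.40 in WT. All KO arrays lay below all WT arrays in each subset, which held for 1.94% of genes in effector cells, 3.37% in memory cells and 0.293% in both. The difference was -2.03 ± 0.55 in effector cells (4.09-fold, adjusted p = 0.383) and -2.28 ± 0.55 in memory cells (4.85-fold, adjusted p = 0.139), with an exact permutation p of 0.0286 in each, the smallest possible. Since memory KO 1 and 4 lay under the array median and no background was given, the size of the memory fold, and of the fold over both subsets, is uncertain.

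Averaged over both subsets, Arnt2 fell 4.45-fold (-2.16 ± 0.39, 95% interval -2.98 to -1.33, adjusted p = 0.029). It was the only member of the 9 that passed there, against 0.194% of all genes, of which 0.113% were lower. The 9 were chosen with earlier results of these data known, so these shares are a description. Among the 25 genes that fell, Arnt2 had the largest difference. Its exact permutation p within subsets was 0.000408, the smallest that the 4900 arrangements can give, with effector and memory arrays again taken as independent. When single arrays were left out the difference ran from -2.40 to -1.88, and the call was lost in 10 of 16 such fits, with adjusted p between 0.05 and 0.0804. These were the fits without effector KO 1, effector WT 1, 2, 3 or 4, memory KO 1 or 4, or memory WT 1, 2 or 3. Without effector KO 4 it was -1.88 (adjusted p = 0.0253), and the memory difference alone passed (-2.28, adjusted p = 0.0403). The KO effect on Arnt2 was not shown to differ between subsets (interaction 0.25 ± 0.78, 95% interval -1.40 to 1.89, adjusted p = 0.975).

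Arnt2 was also higher in effector than in memory cells by 1.12 ± 0.39, which missed the threshold (adjusted p = 0.0749). This difference passed without effector KO 4 (1.40, adjusted p = 0.008) and without memory KO 2 (1.29, adjusted p = 0.0421). The group means in order were 8.0 (SD 0.42) in effector WT, 7.0 (SD 0.59) in memory WT, 5.97 (SD 1.29) in effector KO and 4.72 (SD 1.01) in memory KO (n = 4 each). Neighbouring groups in this order overlapped in their arrays.

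Arnt encodes the common partner of AHR and of the hypoxia factors. It stayed between 7.57 and 8.03 on 15 of 16 arrays, and effector KO 4 read 6.89. KO against WT was -0.13 ± 0.17 in effector cells (95% interval -0.49 to 0.22) and -0.12 ± 0.17 in memory cells (95% interval -0.47 to 0.24), with adjusted p of 0.827 and 0.857. The effector value was 0.10 without effector KO 4, so its sign rested on that array.

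**Figure D2:**
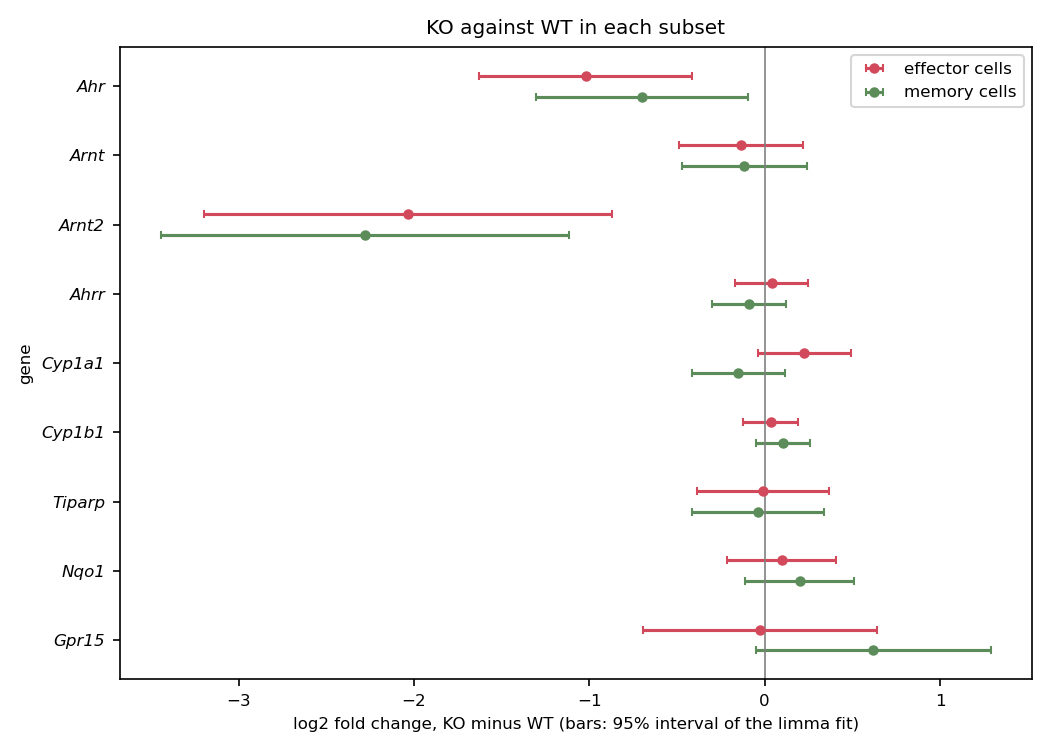
Log2 fold change of KO minus WT (horizontal axis) with 95% intervals of the limma fit, not adjusted for the number of genes, for the 9 genes (vertical axis), in effector and memory cells. The intervals of Ahr and Arnt2 lie below 0 in both subsets, and those of the other 7 genes include 0.

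The order of the KO arrays was alike in part for Ahr and Arnt2. In memory KO, arrays 1 and 4 were lowest for both genes and array 2 was highest for both. In effector KO, array 4 was lowest and array 2 highest for both, while arrays 1 and 3 came in opposite order (Ahr 5.65 and 4.99, Arnt2 5.89 and 6.26). The WT arrays kept to a narrow range of Ahr and a wider range of Arnt2. These are 4 arrays a group that share their RNA across genes, so the like order is a description.

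**Figure D3:**
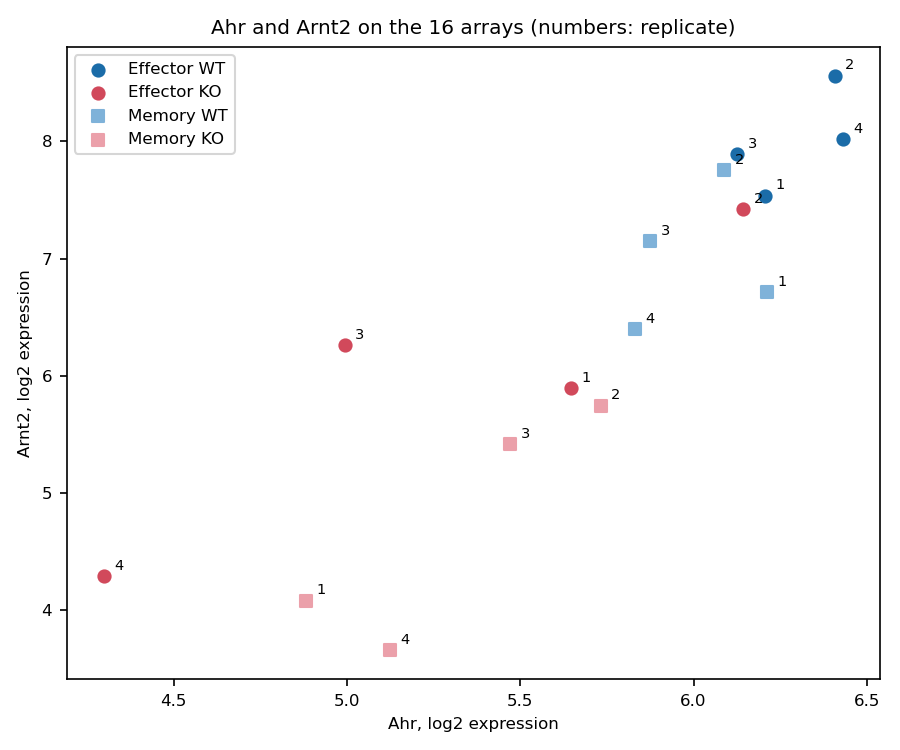
Arnt2 against Ahr, both in log2 expression, on the 16 arrays, with replicate numbers beside the points. WT arrays gather between 5.83 and 6.43 for Ahr, and KO arrays extend down to 4.30 for Ahr and 3.66 for Arnt2.

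Several marker lists moved beside Ahr and Arnt2. The 7 markers of CD4 and regulatory T cells had a summed log2 level of 35.56 to 39.1 in memory KO and 39.37 to 41.04 in memory WT, without overlap, and the lowest sums were on memory KO 1 and 4. In effector cells the sums were 37.72 to 40.49 in KO and 39.3 to 40.06 in WT, lowest on effector KO 4. Of these 7 genes, 3 were lower in effector KO, 5 were lower in memory KO and 0 passed. Ikzf2 was at -1.41 ± 0.49 in memory cells, while the lineage gene Foxp3 had means of 5.52 in KO and 5.56 in WT and Cd4 of 4.28 and 4.67. Means in memory KO and memory WT were 6.61 and 7.42 for Ctla4 and 6.61 and 6.94 for Il2ra. Ikzf2 and Ctla4 thus fell most of the 7 in memory KO. Whether the CD8 T cells themselves made these transcripts was not tested. Zbtb7b went the other way, at 5.11 and 4.70, as did Cd40lg, at 3.09 and 2.99. Cd40lg lay under the array median on all arrays. The 9 measured B and CLL markers summed to 37.41 to 41.09 in memory KO and 42.19 to 48.48 in memory WT, and to 33.07 to 36.37 and 33.28 to 34.39 in effector KO and WT. In memory KO 9 of 9 were lower and 1 passed, in effector KO 3 were lower and 0 passed, and Cr2 and Fcer2a lay under the median on all arrays. Effector KO 4 had the highest effector sums of B and CLL (36.37), myeloid and dendritic (58.64) and NK and innate lymphoid markers (27.59). Its sum of stromal and endothelial markers was the lowest of the effector arrays (28.98). The sort genes Il7r and Cd44 together summed to 11.08 to 12.56 in effector KO and 9.869 to 10.67 in effector WT. Il7r, which encodes CD127, was 1.65 ± 0.25 higher there (adjusted p = 0.0183). Cd44 went the other way, with means of 5.89 in effector KO and 6.17 in effector WT. The part of other cells, or of the gate, in the Ahr and Arnt2 differences was not tested. In a sorted population fewer cells of a type and less RNA per cell cannot be told apart.

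Other lists also shifted. Sums of the 11 measured myeloid and dendritic markers were 56.64 to 58.64 in effector KO, 55.36 to 57.31 in effector WT, 56.3 to 65.51 in memory KO and 59.11 to 64.82 in memory WT. Within the myeloid list, Itgax, which encodes CD11c and is also made by activated T cells, was at 0.76 ± 0.23 in effector cells (adjusted p = 0.442). Sums of the 4 measured NK and innate lymphoid markers were 25.8 to 27.59 in effector KO, 25.01 to 26.56 in effector WT, 26.5 to 28.91 in memory KO and 25.99 to 27.02 in memory WT. Those of the 6 stromal and endothelial markers lay between 28.98 and 32.01. In KO against WT 0 genes of these 3 lists passed, and their part in the Ahr and Arnt2 differences was not tested.

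Arnt2 lies on chromosome 7, as does Il4i1, with 316 tested genes between them in the order of RefSeq assembly GRCm38.p6. Of the 43 genes that passed over both subsets (0.194% of all genes), 20 lie on this chromosome, 1.02% of its 1959 tested genes. Of these 20, 14 were lower in KO, as were 25 of the 43. Between Il4i1 and Arnt2, 1 of 316 passed (0.316%, a share near the 0.194% of all genes), and beyond Arnt2 1 of 881. The other side of Il4i1 held 17 of 761, most of those that passed on this chromosome. The 5 tested genes on each side of Arnt2, a window chosen after its values were seen, did not pass. Among them Fah, which encodes fumarylacetoacetase, the last enzyme of tyrosine breakdown, was at -0.89 ± 0.33 in effector and -0.73 ± 0.33 in memory cells (over both subsets -0.81 ± 0.23, adjusted p = 0.135). The nearest on either side, Abhd17c and Gm2115, were at 0.27 ± 0.10 and 0.0032 ± 0.08 over both subsets.

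**Figure D4:**
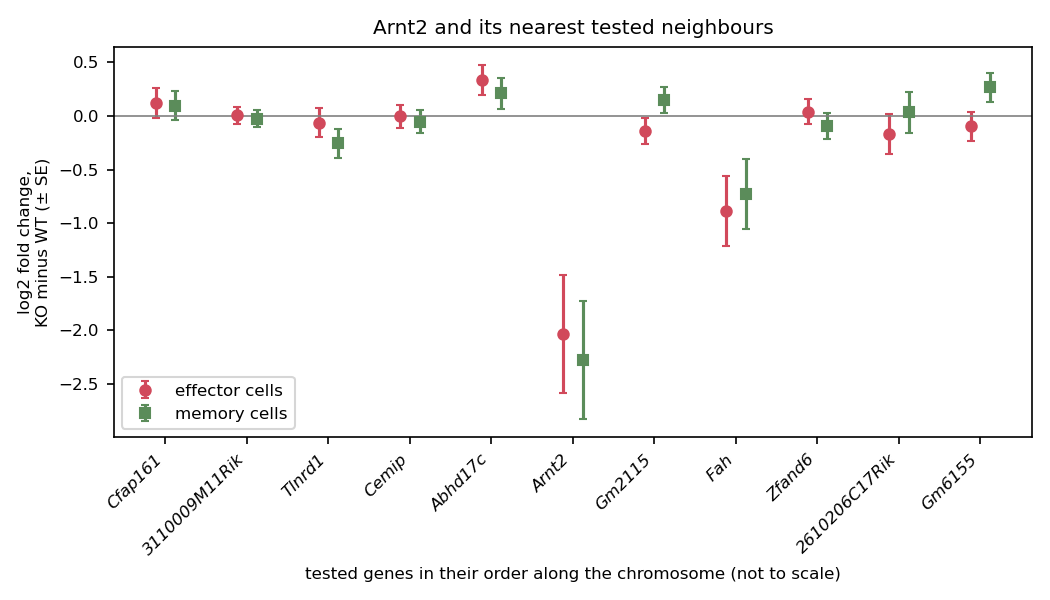
Log2 fold change of KO minus WT ± SE (vertical axis) in effector and memory cells for Arnt2 and the 5 tested genes on each side, in chromosome order and not to scale. Arnt2 is at -2.03 and -2.28, Fah at -0.89 and -0.73, and the other 9 genes lie between -0.26 and 0.33.

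None of the 6 target and repressor genes followed here differed detectably between KO and WT. Further AHR target genes, among them Entpd1, Prdm1 and Fas, are given with the wider pathway. Of the 6 target and repressor genes, 0 passed in KO against WT in either subset or over both, 0 had an unadjusted p under 0.05 in the limma fit of these comparisons, and their median difference over both subsets was 0.05 against 0.02 for all genes. Of all genes, 0.0541% passed in effector cells (0.0361% higher and 0.018% lower in KO), 0.113% in memory cells (0.0361% higher and 0.0766% lower) and 0.194% over both subsets (0.0812% higher and 0.113% lower), and 0 of 6 is a share near that background.

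Tiparp was the only one of the 6 target and repressor genes above the array median throughout. It encodes an ADP-ribosyltransferase that AHR induces and that dampens AHR in turn. It read 6.18, 6.66, 6.92 and 6.22 in effector KO and 6.44, 6.03, 6.80 and 6.74 in effector WT. In memory cells it read 6.80, 6.52, 6.64 and 6.79 in KO and 6.68, 6.54, 6.80 and 6.90 in WT. The groups overlapped in both subsets, and the differences were -0.0072 ± 0.18 (95% interval -0.38 to 0.37) and -0.04 ± 0.18 (95% interval -0.42 to 0.34). A dimmer probe set of Tiparp, not used for the values above, had means of 2.50, 2.21, 2.25 and 2.45 in KO and WT effector cells and then in KO and WT memory cells, under the array median throughout.

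Cyp1a1, the cytochrome that serves as the standard readout of AHR activity, read 4.13, 4.42, 4.22 and 4.42 in effector KO and 4.02, 4.24, 3.95 and 4.09 in effector WT. The difference was 0.23 ± 0.13 in effector cells (adjusted p = 0.596) and -0.15 ± 0.13 in memory cells (adjusted p = 0.704). All values lay within 0.41 of the array median. The 2 differences had opposite signs, with an interaction of 0.38 ± 0.18 (95% interval 0.0020 to 0.75, adjusted p = 0.841), and 5.84% of all genes had an unadjusted p under 0.05 for the interaction while 0 passed.

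Ahrr, the repressor that competes with AHR for ARNT, ranged from 3.14 to 3.62 and differed by 0.04 ± 0.10 in effector and -0.09 ± 0.10 in memory cells. Cyp1b1, another inducible cytochrome, ranged from 2.47 to 2.71 and differed by 0.04 ± 0.07 and 0.10 ± 0.07. Over both subsets its difference was 0.07 ± 0.05, with an exact permutation p within subsets of 0.0327, not adjusted, where the other 5 target and repressor genes had exact p of 0.176 to 0.862. Nqo1, a quinone reductase under AHR and NRF2, ranged from 2.90 to 3.77 and differed by 0.10 ± 0.15 and 0.20 ± 0.15. These 3 genes were dim on all arrays, and the SD of Cyp1b1 over the arrays was smaller than that of all but 0.171% of genes.

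Gpr15, a chemoattractant receptor that guides T cells to the gut, separated the sorts. It read 3.59, 3.48, 3.47 and 3.30 in effector KO and 3.19, 3.80, 3.63 and 3.32 in effector WT. In memory cells it read 6.21, 5.25, 5.49 and 5.71 in KO and 4.97, 6.13, 5.09 and 3.98 in WT. All 8 effector arrays lay below all 8 memory arrays, as for 1.86% of genes. Effector minus memory was -1.88 ± 0.22 (3.68-fold, adjusted p = 3.54e-05, exact permutation p within genotype 0.000408, the smallest possible). It was the only member of the 9 that passed this comparison, 11.1% of them, against 12.2% of all genes, made up of 7.11% lower and 5.05% higher in effector cells, so 1 of 9 is a share near the background. Since the effector signal lay under the array median, the size of the fold is uncertain. KO against WT in memory cells was 0.62 ± 0.32 (95% interval -0.05 to 1.29, adjusted p = 0.48), and memory WT 4, at 3.98, was the lowest memory array. B and CLL marker sums were also higher on every memory array (37.41 or more) than on any effector array (36.37 or less), and their part in the Gpr15 difference was not tested.

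The patterns nearest to Ahr, Arnt2 and Gpr15 over the 16 arrays were found by the root mean square (RMS) difference of gene-centred values, among genes that vary enough and lie above the median of all genes. For Ahr, whose own SD over arrays was 0.61, these were Bmp2k (RMS 0.26), Cd99l2 (0.29), Fah (0.30), Chst12 (0.30) and Nf1 (0.30) of 3479 genes compared. Their KO minus WT differences over both subsets ran from -0.81 to -0.48, and 0 passed. For Arnt2 (SD 1.49) they were Tnfrsf9 (RMS 0.47), Adgrg1 (0.48), Epas1 (0.49), Itih5 (0.50) and Glp1r (0.50) of 336 genes. Tnfrsf9 encodes the costimulatory receptor 4-1BB and Epas1 the hypoxia factor HIF-2alpha, which also pairs with ARNT. These 5 were at -2.01 to -1.38 over both subsets, with adjusted p between 0.0549 and 0.135. For Gpr15 (SD 1.10) they were Prrg4 (RMS 0.43), Slc16a5 (0.48), Nsg2 (0.49), Slc28a2b (0.50) and Nedd4l (0.52) of 852 genes. These are descriptions over 16 arrays that share their RNA across genes.

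**Figure D5:**
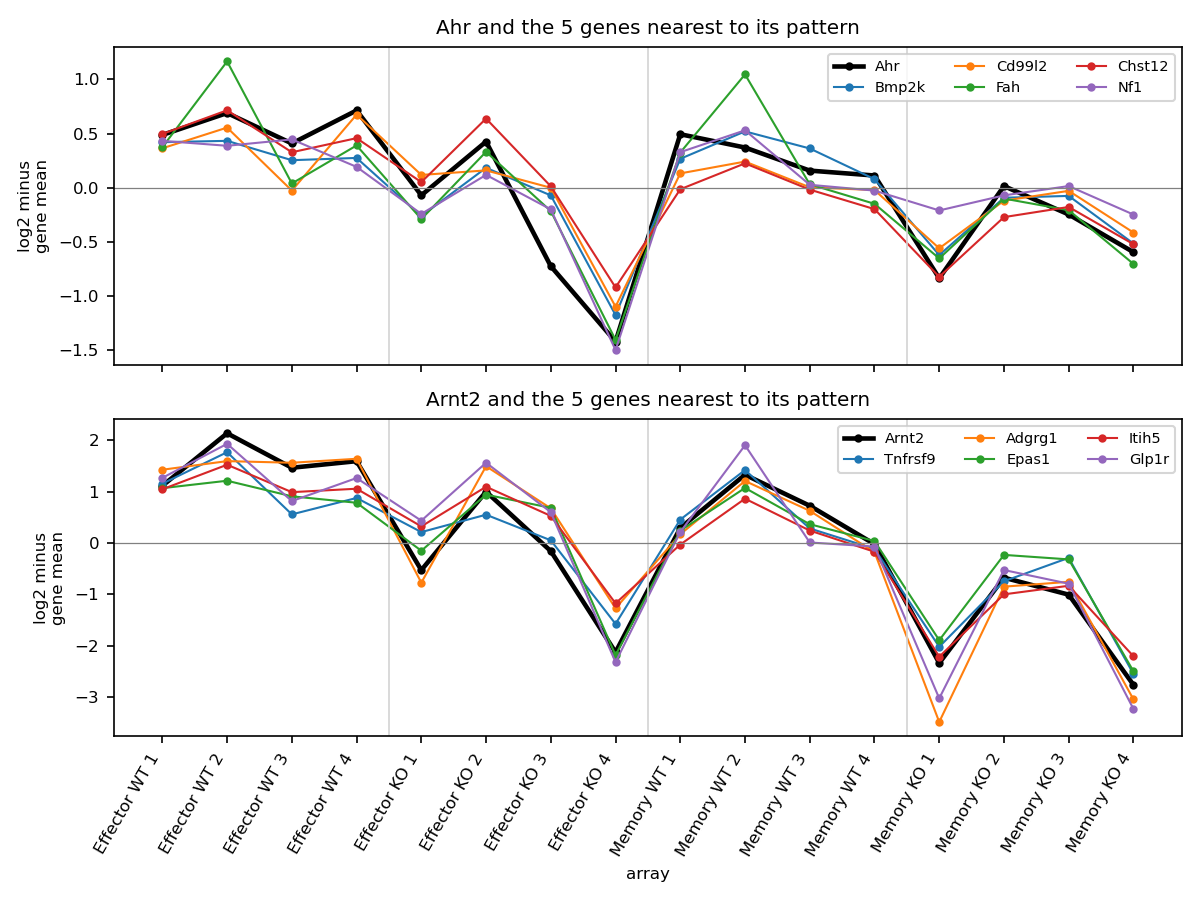
Log2 values minus the gene's mean over all arrays (vertical axis) on the 16 arrays in 4 groups (horizontal axis), for Ahr with its 5 nearest genes and for Arnt2 with its 5 nearest genes. All lines have their lowest effector value on effector KO 4, and those of the Arnt2 panel are lowest among memory arrays on memory KO 1 and 4.

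The wider pathway was read from 79 measured genes of a list of 90. Between KO and WT 0 of 79 passed in effector cells, in memory cells or over both. Of all genes, 0.0541%, 0.113% and 0.194% passed, so 0 of 79 is a share near that background. At an unadjusted p under 0.05 were 12, 15 and 14 of the 79, where 9.32%, 11.3% and 13.9% of all genes had one. Medians over both subsets were -0.02 for the list and 0.02 for all genes. In the complex and its nuclear partners, 20 genes, Nrip1, a corepressor of nuclear receptors, was at -0.57 ± 0.14 over both subsets (adjusted p = 0.0931). Epas1 was at -1.67 ± 0.58 in memory cells (adjusted p = 0.283). Of 18 genes of ligand supply, Ddt, a tautomerase of the MIF family, was at -0.34 ± 0.10 over both subsets (adjusted p = 0.154). Kynu, the kynureninase of tryptophan breakdown, was at -0.96 ± 0.35 in memory cells (adjusted p = 0.306), on a signal above the array median on 3 arrays. Of 9 importers, Slc7a5, the large neutral amino acid transporter, was at 0.38 ± 0.11 over both subsets (adjusted p = 0.134). Of 32 further target genes, Entpd1, the ectoenzyme CD39, was at -0.79 ± 0.18 over both subsets (adjusted p = 0.0751). Prdm1, which encodes Blimp-1, was at -0.91 ± 0.20 in memory cells (adjusted p = 0.0887). Fas, the death receptor, was at 0.81 ± 0.20 in effector cells (adjusted p = 0.302). Of the genes named here, those nearest to the threshold, Entpd1, Prdm1 and Nrip1, were all lower in KO. Slc7a5 and Fas, further from it, were higher. The count of 0 changed when some arrays were left out. Without memory KO 3, Entpd1 and Prdm1 passed in memory cells and over both subsets, without effector KO 2 Entpd1 and Nrip1 passed over both, and without effector KO 4 Entpd1 passed in memory cells.

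Between the sorts, 23 of the 79 passed (29.1%, against 12.2% of all genes), 9 higher (all genes 5.05%) and 14 lower (all genes 7.11%) in effector cells. As the list was made with earlier results of these data known, its larger share is a description and no test of the pathway. Of the complex, 3 of 20 passed (15%, a share near the 12.2% of all genes) and all were lower. These were Ptges3, the co-chaperone p23 (-0.45 ± 0.10, adjusted p = 0.00728), Keap1, which restrains NRF2 (-0.23 ± 0.06, adjusted p = 0.0178), and the acetyltransferase Crebbp (-0.18 ± 0.06, adjusted p = 0.0417). Of ligand supply, 4 of 18 passed (22.2%). Afmid, which makes kynurenine from its formyl form, rose by 0.45 ± 0.09 and Ido1, which opens tryptophan breakdown, by 0.42 ± 0.10, and Ddc and Kmo fell by 0.35 and 0.36. Ido1 lay above the array median on 9 arrays and Kmo on 1, so the sizes of these 2 differences are uncertain. Of the importers, 4 of 9 passed (44.4%). Slc36a1 rose by 0.59 ± 0.11, and Slc6a19, Slc7a8 and Slc36a4 fell by 0.70, 0.57 and 0.37. The sizes for Slc6a19 and Slc7a8 are likewise uncertain, as they lay above the array median on 7 and 6 arrays. Of the further targets, 12 of 32 passed (37.5%), 6 in each direction. Itgae, the integrin chain CD103, fell by 1.32 (SE 0.14, adjusted p = 1.35e-05) and Bach2, a repressor that keeps T cells from effector fate, by 1.40 (SE 0.17, adjusted p = 3.54e-05). Prdm1 rose by 1.14 ± 0.14 (adjusted p = 4.94e-05) and Gfi1, a transcriptional repressor, by 0.68 ± 0.09 (adjusted p = 8.31e-05). Markers of other cells also separated the sorts. Of 9 measured B and CLL markers 7 were lower in effector cells and 0 higher, among them Ms4a1 (-1.53 ± 0.21) and Cd79a (-1.44 ± 0.24). Of 11 myeloid and dendritic markers 3 were lower, Lyz2 (-1.12 ± 0.20), Csf1r (-1.01 ± 0.15) and Flt3 (-0.63 ± 0.10), and 1 was higher, Cd68 (0.52 ± 0.14). Of 4 NK and innate lymphoid markers 2 were lower, Klrb1c (-1.63 ± 0.29) and Ncr1 (-0.40 ± 0.12), and 1 was higher, Eomes (0.44 ± 0.07), which CD8 T cells also express. Of 6 stromal and endothelial markers 1 was lower, Pecam1 (-1.44 ± 0.11). The rest of that list did not pass, with Cdh5 at 0.01, Col1a1 at 0.09, Col3a1 at -0.04, Pdgfrb at -0.01 and Vwf at -0.24. The part of these cells in the differences of the pathway genes and of Gpr15 between sorts was not tested. Ahr itself, at 0.13 ± 0.20, was not among the genes that separated the sorts.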

How the data were processed

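Per the labels' protocols, 1 ng of RNA from sorted cells was amplified and given a biotin label (GeneChip WT Pico, Affymetrix). The deposited table holds log2 values normalized by the authors for 41345 probe sets on 16 arrays, ranging from 0.7365 to 14.0453. The log base was inferred from that range, and the normalization is not given in the sources used here. Of 23521 probe sets with exactly 1 gene symbol, the brightest per gene was kept, which left 22180 genes, and 1814 with several symbols were left out. Each group's mean was fitted with limma 3.58.1 under R 4.3.3 (12 residual degrees of freedom, prior 4.23, no filter on dim genes) for 5 comparisons, and the fit was tested on simulated data. Exact permutation tests are two-sided. They and the main limma fit take all 16 arrays as independent, though effector and memory samples are not stated to be from separate animals. With samples not stated to be separate animals, p-values measure the spread between samples. Members, gene lists and tests were chosen with earlier results of these data known.

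Named pathway genes are those that passed, at most 4 per sub-list and comparison by p, or the 1 with the smallest p, from which examples are drawn. Likeness used genes with a mean above the median gene and an SD of at least 50% of the member's. Alternatives were quantile normalization, a dim filter, an intensity trend, array weights, mean probe sets, 2 groups alone, replicate blocks and leaving out each array.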

Additional observations from a re-analysis of the deposited data

Results flagged for a closer look

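In the group effector KO, array effector KO 4 lay far from the others for Arnt, with a value of 6.89 against 7.74 on the nearest array (7.88 on the highest). Its gap was 0.862 of the group's range, over Dixon's 95% critical value for 4 samples. This was the only distant array among 36 groups of values (9 genes in 4 groups), of which chance alone marks about 1 in 20. For none of the 9 genes was the KO effect shown to differ between effector and memory cells by the interaction test, with 0 adjusted p under 0.05.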

How the results depend on the processing

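Of 1011 values of the 9 genes under alternatives, 943 kept direction and side of the threshold, 11 passed newly, 10 lost the call and 47 changed sign, 0 of these at an adjusted p under 0.05. Replicate numbers were not taken to pair samples. Deviations of same-numbered effector and memory arrays of a genotype correlated at 0.0178 to 0.239, over 0.1 in 6 of 8 pairs, and 7 of 8 effector arrays matched their own number best, a hint from the data and not the design. With the replicate number as a block, the genes called were 29 in effector cells, 104 in memory cells and 389 over both subsets, against 12, 25 and 43. Members called were 1 (Arnt2), 1 (Arnt2) and 2 (Ahr and Arnt2), and other pathway genes 1, 2 and 7. Over both subsets Ahr had an adjusted p of 0.0287 with the block. Between sorts the block called 2 members (Gpr15 and Arnt2, the latter at adjusted p = 0.00424, and 0.000732 with the block within genotype), as did array weights. The fit of 2 groups alone called 4 genes in effector and 7 in memory cells. Array weights called 42 in memory cells and 72 over both subsets, the dim filter 92 and the intensity trend 78. The dim filter left 6 of the 9 genes.

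Leaving out 1 array gave 4 to 42 genes called in effector cells (most without effector KO 2, fewest without effector WT 1), 11 to 249 in memory cells (memory KO 4, memory KO 3), 23 to 329 over both subsets (memory WT 1, effector KO 2) and 0 to 5 for the interaction (5 without memory KO 3). Members called were 1 to 2 between sorts, 0 to 1 in each subset and 0 to 2 over both, and other pathway genes 0 to 2 in memory cells and 0 to 2 over both. In the same fits the sign changed for Ahr (-0.016 to 0.29) and Ahrr (-0.069 to 0.011) between sorts. For KO against WT in effector cells it changed for Arnt (-0.23 to 0.097), Ahrr (-0.022 to 0.077), Tiparp (-0.17 to 0.098), Nqo1 (-0.0069 to 0.21) and Gpr15 (-0.13 to 0.078). In memory cells it changed for Tiparp (-0.10 to 0.017). In the interaction it changed for Ahr (-0.61 to 0.0019), Arnt (-0.12 to 0.21), Arnt2 (-0.24 to 0.80), Tiparp (-0.13 to 0.14) and Nqo1 (-0.21 to 0.0099). Over both subsets it changed for Ahrr (-0.069 to 0.011), Cyp1a1 (-0.0058 to 0.089) and Tiparp (-0.10 to 0.030). Under quantile normalization the effector KO minus WT value was -0.0062 for Cyp1b1 and 0.0063 for Tiparp. Under array weights it was 0.049 for Arnt, 0.14 for Tiparp and 0.027 for Gpr15, with 0.16 for the Arnt interaction and 0.039 for Tiparp over both subsets. With mean probe sets Tiparp was at 0.14 in effector cells and 0.0092 over both. The cause of these changes was not tested. The median of all genes moved by under 0.1 with quantile normalization. The number of arrays limits precision, and no background signal was given.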
